A study of Homo sapiens with 11 samples.

Results

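A synthetic duplex of the microRNA miR-302a was transfected into PC-3, a line of human prostate cancer cells, and gene expression was compared with PC-3 cells that received the reagent and no duplex (mock). The comparison rests on 1 array for miR-302a, sample 3, and 1 mock array from the same slide, sample 1. The members are the probes well above background on at least 1 of these 2 arrays, and there were 27706 of them among the 41000 probes of the array. Of the members, 25816 were well above background on both arrays and 25547 had a value on both arrays in the table of log2 values that the authors deposited, in which the difference was taken.

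In the whole study, total RNA was taken from PC-3 cells 24 h after transfection and labelled for 11 Agilent whole human genome arrays of 1 colour. The remaining duplexes were dsEcad640, a small RNA directed at the E-cadherin promoter, and the microRNAs miR-373, miR-372, miR-520c and miR-520f, all in the same line. An array was loaded with 150 ng of pooled RNA of 4 transfections, so it carries no information on how single transfections varied. Beside the pair, set 1 includes dsEcad640 (sample 2) and a first miR-372 array (sample 4). The second set has miR-373 (sample 7) with mock sample 8, and the third a second miR-372 array (sample 10) and miR-520c (sample 12) with mock samples 9 and 11. The question was which mRNAs change together when small RNAs with one common seed enter these cells, E-cadherin and its repressor ZEB1 among them. The dose on the arrays is not given in the sources used here. No array holds cells with a duplex of unrelated sequence, so a response to miR-302a and a response to any double-stranded RNA cannot be told apart by this pair.

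miR-302a belongs to a family of microRNAs that is abundant in human embryonic stem cells and falls silent on differentiation. A microRNA guides an Argonaute protein to mRNAs that pair with its seed, the bases near its 5′ end, and such mRNAs are destabilised and less translated. The family is known for holding down inhibitors of the cell cycle, receptors of the TGF-beta pathway and kinases of the Hippo pathway, and for its use in reprogramming.

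The mature strands are shown because the seed is what the duplexes of the study share. The sequences are from RefSeq (GRCh38.p14) and are written 5′ to 3′, with bases 2 to 8, the seed, in capitals. The guide strand of miR-302a lies at chr4:112648186-112648208 and the opposite strand of its hairpin at chr4:112648224-112648246, both on the minus strand.
hsa-miR-302a-3p: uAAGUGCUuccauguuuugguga
hsa-miR-302a-5p: aCUUAAACguggauguacuugcu
hsa-miR-372-3p: aAAGUGCUgcgacauuugagcgu
hsa-miR-373-3p: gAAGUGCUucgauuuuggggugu
hsa-miR-520c-3p: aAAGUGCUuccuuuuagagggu
The guide strand of miR-302a and the other 3 strands shown have the seed AAGUGCU, and its match in an mRNA, written as DNA, is AGCACTT. By the study's methods, dsEcad640 carries this seed too, and miR-520f, whose seed is shifted, was not used here. The opposite strand of miR-302a has another seed, CUUAAAC, with the match GTTTAAG. The arrays measure mRNA, so the amount of miR-302a in the transfected cells was not among the values.

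On the mock 1 array 64.2% of probes were well above background, on the miR-302a array 66.3%, and no spot was saturated. On the array of miR-372 sample 4 the share was 88.1%, and its values for dim probes are given here only beside the others. Levels below are log2 signals after subtraction of the 75th percentile of the same array, the scale on which mock arrays were compared. Mock samples 1 and 8, of different slides, differed with an SD of 0.211 over the members, less than mock samples 9 and 11 of one slide (0.394), and both stood apart from samples 9 and 11 (SDs of 0.858 to 0.960). The labels do not say whether mock arrays came from separate mixes of RNA. The epithelial markers KRT8, KRT18, KRT19 and EPCAM were measured on both arrays of the pair. KLK3, the prostate-specific antigen that PC-3 cells are known to lack, goes against the label on 1 of its 3 probes, with table values of 16.08 in mock sample 1 and 16.25 under miR-302a. Of 8 markers of other cell types, 4 were not well above background on either array, among them PTPRC of leukocytes, CDH5 of endothelium and DCN of fibroblasts. A further 3 were measured on both arrays, with table values in mock sample 1 of 6.60 for CD3E, 5.82 for PECAM1 and 5.87 for COL1A1, and ALB was above background on 1 array.

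Differences are log2 values of miR-302a minus mock sample 1 from the deposited table, and a probe is called at a difference of at least 1, a factor of 2. Of 25547 members, 141 (0.552%) were called down and 89 (0.348%) were called up. The differences had a median of 0.01, an SD of 0.302 and a range of -2.28 to 2.01. With 1 array in each group no p-value is given, and the mock arrays serve as the yardstick. Between mock samples 9 and 11, which share a slide and had no duplex, 465 of 24836 members (1.87%) were at least 1 apart, more than the 0.900% between miR-302a and mock sample 1. Mock samples 1 and 8 were closer, with 0.481% of members at least 1 apart on the 75th percentile scale, where miR-302a and mock sample 1 gave 1.29%. A called probe is therefore described further where its difference also exceeded the range of mock samples 8, 9 and 11, whose median over the members was 0.546. That held for 127 probes called down (0.497% of the members) and 68 called up (0.266%). On the scale of the 75th percentile, the miR-302a array lay below all 4 mock arrays for 125 of the 141 probes called down, beside 24.8% of all members. It lay above all 4 for 74 of the 89 called up, beside 22.3%. The side of mock sample 1 was part of the choice of these probes, so these counts are only described. Against mock sample 8 in place of sample 1, 119 of the 141 and 63 of the 89 were at least 1 apart, beside 1.55% of all members in either direction. The miR-302a array is the same and mock samples 1 and 8 were close, so this is no replication.

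The calls were spread unevenly over the levels. Among the 6387 dimmest members 21 probes were called down and 48 up, whereas among the 6387 brightest 22 were called down and 5 up. The median table level in mock sample 1 was 7.97 for the probes called down and 6.28 for those called up, beside 8.24 for all members. Many genes have several probes. In genes with a called probe and more than 1 measured probe, only probes not called in the same direction were counted. Genes with every probe called therefore add none, and no counted probe could reach the call in that direction. For the 52 such genes with a probe called down, 46 of 57 counted probes (80.7%) were below 0, with a median of -0.36. For the 27 with a probe called up, 26 of 36 (72.2%) were above 0, with a median of 0.21. Over all members 49.0% of probes were below 0 and 50.9% above.

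The 15 genes lowest under miR-302a, which were chosen as called and beyond the mock range, included bright genes of signalling and growth control. TGFBR2, the type II receptor of TGF-beta (probe at chr3:30710167-30710226, hg18), had levels of 3.07, 3.09, 3.46 and 3.38 in mock samples 1, 8, 9 and 11 and of 1.18 under miR-302a. Its table difference was -1.90, a 3.74-fold lower signal, and a dimmer probe of the gene was at -0.96. CDKN2C, which encodes the inhibitor p18 of the kinases CDK4 and CDK6 (chr1:51212781-51212840), had mock levels of 4.00, 4.00, 3.84 and 3.85 and a level of 2.31 under miR-302a. The mock arrays thus lay within 0.16 of each other, while the table difference was -1.72, a 3.30-fold lower signal. DAZAP2, a small proline-rich protein, had mock levels of 2.08, 2.11, 2.82 and 3.00 and one of 0.15 under miR-302a, with a difference of -1.93. CMPK1, a kinase of pyrimidine nucleotides, had mock levels of 1.39, 1.43, 1.57 and 1.59 and one of -0.22 under miR-302a, with a difference of -1.59. In these 4 genes the miR-302a array was below all mock arrays, as it was for 24.8% of all members. The rule of choice favours such genes, so this is only described.

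Enzymes, lysosomal genes and chromatin genes of lower level were also among the 15 lowest genes. RNASE4, a secreted ribonuclease, had mock levels between -1.97 and -1.24 and a level of -4.10 under miR-302a (difference -2.13). CYBRD1, a ferric reductase, had mock levels between -1.74 and -1.45 and one of -3.81 (difference -1.80), but a dimmer probe of the gene was at -0.26. KDM1B, a histone demethylase, had mock levels between -3.40 and -2.86 and one of -5.26 (difference -1.80). DRAM1, a lysosomal membrane protein of autophagy, was 3.03-fold lower on the brighter of its 2 probes and had a difference of -1.63 on the other. GNPDA2, a glucosamine-6-phosphate deaminase, had differences of -1.57 and -1.54 on its 2 probes. CROT, a peroxisomal carnitine acyltransferase, was at -1.67 and ZBTB20, a zinc finger repressor, at -1.60. MLC1, a membrane protein known from astrocytes, was at -1.73, but mock sample 11 stood at -2.05 while the other mock arrays lay between -0.94 and -0.83. SAMD9L and RTP4, both known as interferon-induced genes, were at -1.60 and -1.59 and are taken up again with the interferon genes.

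Some of the largest calls rested on 1 of several probes. A probe of CUX1, a homeobox transcription factor, had a difference of -2.22, whereas the brighter probe of the gene was at -0.28. GALNT3, a mucin-type glycosyltransferase, had a probe at -1.75 and a brighter one at -0.28, and SCARA5, a scavenger receptor, had probes at -1.83 and -0.15. MICA, a stress-induced ligand of the immune receptor NKG2D, had a probe at -1.55 and a brighter one at -0.18. MICA has a close relative in MICB, so its probes may share signal.

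The 15 genes highest under miR-302a were dimmer and of mixed function, with extracellular matrix, cytokine and squamous epithelial genes among them. MYO1F, a class I myosin of blood cells (chr19:8492124-8492183), had levels of -3.42, -3.47, -3.52 and -3.81 in mock samples 1, 8, 9 and 11 and of -1.27 under miR-302a, a difference of 2.01 (4.03-fold). A dimmer probe of MYO1F was at -0.13, beside a range of 2.85 among mock samples 8, 9 and 11, so the rise rested on 1 probe. IL37, a cytokine of the interleukin 1 family that dampens inflammation, had mock levels between -2.20 and -1.64 and a level of -0.17 under miR-302a (difference 1.80). PDLIM2, a PDZ and LIM domain protein, had mock levels between -1.38 and -0.70 and one of 0.29 (difference 1.66). For these genes the miR-302a array was above every mock array, as it was for 22.3% of all members.

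MMP1, the interstitial collagenase, had mock levels of -1.12, -1.05, -0.70 and -0.12 and one of 0.40 under miR-302a, with a table difference of 1.53. COL5A2, a chain of type V collagen, had a difference of 1.36 on its brighter probe and 0.98 on the other. ENHO, which encodes the secreted peptide adropin, had mock levels between -2.87 and -2.54 and one of -1.16 (difference 1.55). SERPINB4, a squamous cell carcinoma antigen, was at 1.46 and its near-identical neighbour SERPINB3 at 1.15, and the probes of these 2 genes may share signal. The transcription factors MKX, NFATC4 and HOXB9 were at 1.68, 1.50 and 1.45. Under dsEcad640, miR-372 sample 4, miR-372 sample 10 and miR-520c, NFATC4 was at -0.23, -1.10, 0.00 and -0.46, while MKX and HOXB9 were above 0. APOC4, an apolipoprotein gene, was at 1.98, DNAH7, an axonemal dynein, at 1.41, TXK, a tyrosine kinase of lymphocytes, at 1.40, and C1orf116 at 1.33. For HOXB9, mock sample 9 stood at -1.96 and the other mock arrays between -3.25 and -3.11.

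For some called genes the mock array of the pair was the one that stood apart. EFEMP2, an elastic fibre protein with the lowest difference of all members (-2.28), had a level of -2.49 in mock sample 1, of -5.29, -4.86 and -5.13 in mock samples 8, 9 and 11, and of -5.14 under miR-302a. The miR-302a array thus lay within the range of the other 3 mock arrays. PREB, the exchange factor that starts COPII coats, had a difference of 1.52, with a level of 0.97 in mock sample 1, of 2.14, 1.84 and 1.81 in the other mock arrays and of 2.53 under miR-302a. KCTD17, MYCBP2 and SPICE1 had differences of 1.78, 1.59 and 1.28, and their levels under miR-302a of -1.90, -1.30 and -1.94 were close to those of mock sample 8, at -2.03, -1.24 and -1.75. They are named after their values were seen. Mock sample 1 lay above the other 3 mock arrays for 39 of the 141 probes called down, against 26.4% of all members, and below them for 36 of the 89 called up, against 23.2%. Taken against the mean of the 4 mock arrays, 27 of the 30 named genes stayed at least 1 apart in the same direction, and EFEMP2, PREB and DNAH7 came to -0.70, 0.84 and 0.81.

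A further 1885 members were well above background on 1 of the 2 arrays only, 511 on mock sample 1 and 1374 on miR-302a. For these the fold is a bound, the signal of the bright array over the higher of the dim probe's own signal and the lowest signal that was well above background on the dim array. The bound was at least 2-fold for 127 members lower and 73 higher under miR-302a. The largest bounds were at least 12.8-fold lower for RFPL2, 10.3-fold for SEPTIN5, 9.38-fold for H2BC26, 8.46-fold for IRX5 and 7.34-fold for MARK1. In all 5 genes mock sample 1 was far above the other mock arrays. RFPL2, for example, had a level of -1.70 in mock sample 1 and of -7.25, -7.74 and -8.04 in mock samples 8, 9 and 11. In the other direction, TENM3, a teneurin of the cell surface, was at least 15.4-fold higher under miR-302a, ADORA1, an adenosine receptor, at least 7.67-fold, CAMKMT 7.60-fold, DHX34 7.26-fold and ANKRD1 6.75-fold. ANKRD1, a well-known target of the Hippo effector YAP, had levels of -5.87, -6.45, -5.76 and -5.22 in the mock arrays and of -2.34 under miR-302a. The ANKRD1 difference was 2.98 under miR-372 sample 10 and 2.46 under miR-520c, whereas CAMKMT and DHX34 lay between -0.20 and 0.18 on those arrays.

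Sets 2 and 3 share no array with the pair, so their duplexes were used to look at the called probes on other slides. Of the 108 probes called down that had a value in set 2, 65 (60.2%) were at least 1 lower under miR-373 than in mock sample 8, against 0.597% of all members. The same count was 80 of 136 (58.8%) under miR-372 sample 10, against 0.942%, and 81 of 136 (59.6%) under miR-520c, against 3.16%. Of the probes called up, 19 of 73 (26.0%) were at least 1 higher under miR-373, against 0.476% of all members. The counts were 40 of 86 (46.5%) under miR-372 sample 10, against 0.745%, and 41 of 86 (47.7%) under miR-520c, against 3.31%. The median difference of the probes called down was -1.08 under miR-373, -1.13 under miR-372 and -1.33 under miR-520c, and that of the probes called up was 0.77, 0.98 and 0.95. Of 107 probes called down with a value on all 3 arrays, 91 (85.0%) were below 0 on each, against 26.6% of all members, and of 73 called up 64 (87.7%) were above 0 on each, against 23.7%. miR-372 sample 10 and miR-520c share the mean of mock samples 9 and 11 as their control. Mock sample 8, the control of miR-373, differed from mock sample 1 with an SD of only 0.211. As the labels do not say whether these came from separate mixes of RNA, the miR-373 counts may not be independent of the choice of probes.

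Named genes that were lower on the miR-302a array included 4 measured well above background on every mock array, with like values on the other slides. Under miR-373, miR-372 sample 10 and miR-520c, TGFBR2 was at -1.48, -1.92 and -2.31, DAZAP2 at -1.48, -1.83 and -2.15, CMPK1 at -1.36, -1.94 and -2.75, and DRAM1 at -1.84, -1.71 and -1.44. Among those that were higher, IL37 was at 1.83, 2.28 and 1.41, PDLIM2 at 1.30, 1.26 and 1.75, COL5A2 at 1.24, 1.34 and 1.50, and MMP1 at 0.97, 1.18 and 1.11. These 8 genes therefore had the sign of the miR-302a difference with all 3 duplexes.

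CDKN2C, MYO1F and ENHO differed from mock by a larger amount under miR-302a than on the other arrays of duplexes with this seed. CDKN2C was at -1.72 under miR-302a, at -0.80 under dsEcad640 and -0.68 under miR-372 in the same set, which share mock sample 1, and at -0.43, -0.49 and -0.45 under miR-373, miR-372 sample 10 and miR-520c. MYO1F was at 2.01 on its brighter probe under miR-302a and between 0.04 and 0.73 on the 5 other arrays. ENHO was at 1.55 and between -0.01 and 0.34. Among the 152 called probes beyond the mock spread with values on all 5 of these arrays, the miR-302a difference was the most extreme for 14, and for 6 of them by at least 0.5. The other 3 were TNRC6B (-1.05), LINC00239 (-1.17) and a probe without a symbol. For 131 of the 152 probes the miR-302a difference lay within the range of the other 5 arrays. This division was made after the values were seen, and with 1 array of miR-302a a difference between duplexes was not tested.

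Gene lists were described by counts and medians, with 1 value for each gene from its brightest probe. Over all 12926 genes with such a value the median was 0.00, 0.619% were called down and 0.472% up, and 4.90% were at or below -0.5. Of 29 targets of the family of miR-302 and related microRNAs known from other work, 24 were measured, and their median was -0.35. TGFBR2, DAZAP2, LATS2 and MBD2 were called down and none was called up, and 10 were at or below -0.5. LATS2, a kinase of the Hippo pathway (chr13:20446786-20446845), had mock levels of -0.55, -0.58, -0.27 and -0.37 and a level of -1.97 under miR-302a, with differences of -1.31 and -1.08 on its 2 probes. MBD2, a reader of methylated DNA, had mock levels between 3.54 and 3.96 and one of 2.63 (difference -1.01). Below the call, RBL2, a pocket protein, was at -0.76, TNFAIP1 at -0.77, CDKN1A, the inhibitor p21, at -0.67 and RHOC, a small GTPase, at -0.40. CD44, CCND1 and KDM1A, which other work also names as targets, lay between 0.03 and 0.14.

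Around these receptors and kinases, most of the pathways stayed near the median of all genes. In the TGF-beta pathway 29 of 31 genes were measured with a median of 0.01. TGFBR2 was called down, and the ligand TGFB2 was called up at 1.14, within the range of 2.04 of mock samples 8, 9 and 11. The SMAD genes 2 to 7 lay between -0.30 and 0.33, SMAD9, which is outside the list and was named after its values were seen, was called up at 1.03, the receptor BMPR2 was at -0.62, and ACVR2B, an activin receptor, was at 0.69 on its brightest probe and 1.34 on another. The target gene ID1 was at 0.55. In the Hippo list 16 of 18 genes were measured, and 8 lay below 0 and 8 above. LATS2 was called down, the upstream kinase STK4 was at -0.79 and the transcription factor TEAD4 at 0.77. The YAP target genes CTGF, CYR61, AXL and AREG lay between 0.08 and 0.20. ANKRD1, a YAP target of the list that was well above background on the miR-302a array only, is not among the 16. It was at least 6.75-fold higher under miR-302a.

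Among 19 measured genes of G1 control, CDKN2C was called down and none was called up, with a median of -0.16. E2F5 was at 0.83, CCNE1, cyclin E, at 0.77, and CDK6 at 0.54 beside a range of 1.41 of those 3 mock arrays. The 18 genes of S phase had a median of 0.12 and the 18 of G2 and M phase one of -0.07, with no call in either list. The 15 chromatin regulators had a median of 0.03 with MBD2 as the only call. Of the 7 measured pluripotency genes none was called, the median was 0.13, and SOX2, NANOG, LIN28A, ZFP42 and DPPA4 were not well above background on either array. The median of the 9 housekeeping genes was -0.02.

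CDH1, ZEB1, ZEB2 and SNAI1 were dim, whereas the repressors SNAI2 and TCF3 were brighter, and none of these genes reached the call against mock sample 1. CDH1, which encodes E-cadherin, had levels of -3.95, -3.79, -2.95 and -3.73 in mock samples 1, 8, 9 and 11 and of -3.51 under miR-302a, with a table difference of 0.48. The miR-302a array thus lay among the mock arrays. ZEB1, a zinc finger repressor of CDH1, had mock levels of -3.99, -4.12, -3.25 and -3.60 and one of -4.80 under miR-302a, with a difference of -0.63 beside a range of 0.87 among mock samples 8, 9 and 11. ZEB2 had mock levels between -3.37 and -2.55 and one of -4.37, with a difference of -0.80. Both ZEB genes were below all 4 mock arrays, as were 24.8% of all members. With the averaged mock arrays (all 4, on the 75th percentile scale) as the control, ZEB1 was at -1.06 and ZEB2 at -1.39, past a difference of 1. That control includes mock samples 9 and 11 of another slide, where both genes were higher than in mock sample 1. With it, 404 members were past 1 down and 1339 up. SNAI1 was at 0.26 against mock sample 1 and at -0.05 with that averaged control, while SNAI2 and TCF3 were at -0.24 and 0.05. Of 22 measured epithelial genes 17 were above 0, with a median of 0.23 and no call. The keratins KRT7, KRT18 and KRT8 were at 0.69, 0.58 and 0.51, and VIM, the mesenchymal filament gene, was at -0.44 with mock samples 8, 9 and 11 within 0.09 of each other. SCEL, a gene of the cornified envelope, was at least 2.55-fold higher under miR-302a, with mock sample 1 not well above background. Of 15 measured mesenchymal and matrix genes MMP1 was the only one called, and the median was 0.06.

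The interferon response genes were the list with the lowest median. Of 20 measured genes 19 were below 0, the median was -0.50, and 10 were at or below -0.5. MX2, an antiviral GTPase, had levels of 0.52, 0.51, 0.21 and 0.47 in mock samples 1, 8, 9 and 11 and of -0.94 under miR-302a, a difference of -1.42 with -1.19 on a second probe. IFIH1, a sensor of double-stranded RNA, had mock levels of -0.43, -0.50, -0.04 and 0.41 and one of -1.74, a difference of -1.19. These 2 genes were called down and none was called up. IFI44 was at -0.91, the sensor gene RIGI at -0.78, and MX1, IRF9 and IFI27 lay between -0.77 and -0.76. IFIT1, IFIT3, OASL and IFIT2 lay between -0.26 and 0.05.

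The list did not have one direction over the duplexes with this seed. On other slides its median was -0.86 under miR-373 and -1.10 under miR-372 sample 10, whereas it was 0.73 under miR-520c. In set 1, where the control is shared, it was -0.91 under miR-372 sample 4 and 0.03 under dsEcad640. The miR-520c array was thus the one whose median lay clearly on the other side of 0, with the differences between duplexes not tested. MX2 was at -2.36 under miR-373, -2.51 under miR-372 sample 10 and 1.28 under miR-520c. SAMD9L, with a difference of -1.60 under miR-302a, was at -2.22, -2.64 and 0.49 on the same arrays, and RTP4 was at -2.52 under miR-372 sample 10 and 0.51 under miR-520c. IFNB1, CXCL10 and CCL5 were not well above background in the miR-302a pair, and mock sample 11 was above the other mock arrays for IFIH1, IFI44, ISG15 and IFI27.

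Single members stood out in 2 further lists. SEC23A, a subunit of the COPII coat of secretory vesicles (chr14:38571420-38571479), had mock levels of 2.47, 2.62, 2.76 and 2.75 and a level of 1.15 under miR-302a, with differences of -1.34 and -1.52 on its 2 probes. Its difference was -1.32 under miR-373, -1.43 under miR-372 sample 10 and -1.64 under miR-520c. The other 9 genes of the list lay between -0.38 and 0.12. Among 12 genes of the small RNA machinery with a median of -0.18, or -0.48 against the mean of the 4 mock arrays, TNRC6B, a partner of Argonaute proteins in silencing, had a probe at -1.05 with mock levels of 1.00, 0.77, 1.28 and 1.17 and a level of -0.06 under miR-302a. Its other 3 probes were at -0.62, 0.10 and 0.47, so the probes of the gene went against each other. TNRC6C, AGO1 and DICER1 were at -0.87, -0.73 and -0.63, and XPO5 and TARBP2, which export and process the precursors, at 0.70 and 0.61.

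Of the genes that the study followed by qRT-PCR, LATS2 was called down, MED8, a Mediator subunit, was at -0.66 and MTPN, myotrophin, at -0.45. RAB31 was at -0.09 at the lower limit of measurement, with mock sample 11 at -2.87 and the other mock arrays between -5.02 and -4.68. FERMT2 was at 0.25, GAPDH at -0.05 and HINT1 at -0.02.

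The study also lists probes of genes with the common seed match AGCACTT in the 3′UTR that were lower, or higher, under the duplexes. That list was chosen on these arrays, so its direction is no independent evidence and its values are only described. The 323 probes of the lower list had a median miR-302a difference of -0.32, and 16 of them were called down, among them both probes of SEC23A and of LATS2. The median was -0.31 for the 270 probes with 1 match and -0.37 for the 53 with 2 or more, of which 8 were called in each case. It was -0.42 for the 108 probes whose gene also held the match AAGCACT, shifted by 1 base, and -0.29 for the other 215. Among the sites that the list gives, none of the 323 had the match GTTTAAG of the opposite strand of miR-302a. No sequence was searched for it here, so its absence from these genes is not shown. The 114 probes of the higher list had a median of 0.26 and included 1 call, WNT7B at 1.14. The remaining 125 of the 141 probes called down, TGFBR2, DAZAP2 and CDKN2C among them, were not in the lower list. Transcript and probe sequences were not used here, so seed matches were not counted over all members.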

How the data were processed

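The authors deposited Agilent scanner output (Feature Extraction 10.5.1.1, probe coordinates of hg18) and a table of log2 values. Its processed signal is, per the file headers, an intensity from which background was subtracted within the array, with no scaling between arrays. The deposited log2 table has equal quartiles within a set, by a normalization not given in the sources used here, and it holds nearly only probes well above background on all arrays of a set. It was therefore used for differences within a set. Scanner intensities were averaged over the spots of a probe without outlier spots, turned into log2 and centred on the 75th percentile of each array for comparisons of mock arrays. Probes were named through RefSeq accessions and symbols, and the annotation used gives no exon or UTR.

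Calls need a difference of at least 1. Named genes are, among members with a symbol, well above background on both arrays, called and beyond the mock range, the 15 lowest and 15 highest (1 probe a gene, the brightest), the 5 largest bounds in each direction, the called genes of each list and the genes the study names. The replicate numbers pair no arrays and no test was made. Members, lists and rules were chosen with earlier results of these data known. The alternatives were the 75th percentile scale, quantile normalization, normexp with an offset of 50, other filters, other mock arrays and a difference of 0.5. The calling rule was tested on simulated data. Normexp and quantile normalization were run in limma 3.58.1 under R 4.3.3. Counts and medians came from Python 3.11.15, using pandas 2.3.3 together with numpy 2.4.6. The number of arrays limits the precision. Feature values cover 11 arrays, and miR-520f was not used here.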

Additional observations from a re-analysis of the deposited data

Results flagged for a closer look

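Among 49 named results, 5 had 1 mock array far from the other 3, as the gap to the nearest array divided by the range of the 4 mock arrays exceeded Dixon's critical value. Chance gives such a gap in about 1 in 20 groups of this size. The ratio was 0.849 for EFEMP2 (mock sample 1), 0.911 for MLC1 (mock sample 11), 0.890 for HOXB9 (mock sample 9), 0.844 for MX2 (mock sample 9) and 0.843 for RAB31 (mock sample 11). EFEMP2 is the one in which the array that stands apart is the control of the pair, at -2.49 beside -5.29, -4.86 and -5.13.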

How the results depend on the processing

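No paired analysis was possible because the result comes from no test and the numbers of the arrays pair nothing. The 141 probes called down became 49 after normexp, 1237 at a difference of 0.5 and 234 on the 75th percentile scale. The 89 called up became 28, 954 and 96. Other settings changed the scale as well, so their counts stand beside 234 and 96: 404 down and 1339 up against the mean of the 4 mock arrays, 1313 down and 1071 up without a filter, and, in an alternative chosen after seeing the data, 247 down and 150 up against mock sample 8. The order of down and up was thus turned against the mean of the 4 mock arrays, where mock samples 9 and 11 of another slide take part. The cause was not tested. The counts beyond the range of mock samples 8, 9 and 11 were 127 (down) and 68 (up). Without single ones of these arrays they were 127 to 137 and 79 to 80. Leaving out an array cannot widen the range, so these counts could only stay or rise. Among the 49 named genes with alternatives no called one changed its sign, SNAI1 did against the mean of the 4 mock arrays, and GAPDH and HINT1, near 0, did after normexp. Normexp and the mean of the 4 mock arrays each moved 18 of 49 by more than the SD of the mock arrays. Among the genes named as lowest, normexp brought KDM1B, CROT and RTP4 to differences under 1 in size. Among those named as highest, normexp gave 0.86 for APOC4, 0.68 for MKX, 0.94 for ENHO, 0.76 for NFATC4 and 0.56 for SERPINB4. HOXB9, DNAH7, TXK and C1orf116 came to 0.81, 0.62, 0.87 and 0.49. The remaining genes named as highest, MYO1F, IL37, PDLIM2, MMP1, PREB and COL5A2, stayed above 1. Of the medians over lists and groups, 5 near 0 changed their sign in an alternative, and against the mean of the 4 mock arrays that of the small RNA machinery became -0.48 and that of the genes followed by qRT-PCR went from -0.27 to -0.57. With 1 array a group, no spread of miR-302a itself is known, and dim signals limit the bounds.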
